A study of Mus musculus with 8 samples.

Results

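Genes of the Nlrp family that are transcribed in the egg were followed in mouse oocytes with and without Esrp1: Nlrp2, Nlrp4a, Nlrp4b, Nlrp4c, Nlrp4e, Nlrp4f, Nlrp5, Nlrp9a, Nlrp9b and Nlrp14, 10 in all. They were chosen by name, and all 10 were found, by Ensembl gene identifier and GENCODE M21 symbol, among the 24860 genes listed in each library. The oocytes were MII oocytes, mature eggs arrested in the second meiotic metaphase, taken from C57BL/6 females at postnatal day 42. One group was WT, labelled wild type, and the other Esrp1-KO, labelled Esrp1-/-, with 4 libraries each, and both groups shared strain, age and stage. No promoter, Cre line or deleted exon is named for the knockout in the sources used here. Each library was made with Smart-seq2 from a tube of 15 oocytes. The replicates are called biological in the series' description, which does not tell which females filled a tube, so the p-values measure the spread between tubes, which may in part be technical.

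NLR proteins are built from an NACHT domain that binds and hydrolyses nucleotides and a run of leucine-rich repeats, and most Nlrp proteins also start with a pyrin domain. In immune and epithelial cells some of them sense microbial or stress signals, and a few assemble inflammasomes, the platforms that activate inflammatory caspases. A separate set is transcribed mainly in the growing oocyte, where the proteins are stored for the embryo. The best studied is Nlrp5, also called Mater, a core protein of the subcortical maternal complex beneath the egg surface, without which embryos stop in early cleavage. The Nlrp4 and Nlrp9 genes are rodent expansions of single ancestral genes.

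On GRCm38, 9 of the 10 genes lie on chromosome 7 and Nlrp4f lies on chromosome 13. In order along chromosome 7 they are Nlrp2 (chr7:5298547-5351035, minus strand), Nlrp4c (chr7:6045161-6105150), Nlrp4b (chr7:10687789-10730168), Nlrp9b (chr7:19991465-20073306), Nlrp4e (chr7:23301192-23362277), Nlrp5 (chr7:23385889-23441922), Nlrp4a (chr7:26435113-26476142), Nlrp9a (chr7:26535023-26575615) and Nlrp14 (chr7:107166990-107198102), the last 8 of them on the plus strand. Nlrp4f is at chr13:65177111-65205977 on the minus strand. The closest neighbours are Nlrp4e and Nlrp5, 23.6 kb apart, and Nlrp4a and Nlrp9a, 58.9 kb apart. Neighbourhood and kinship do not coincide, since Nlrp4c and its nearest relative Nlrp4e are separated by Nlrp4b and Nlrp9b.

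How alike the genes are bears on every value given here, because short reads from near-identical copies can be assigned to the wrong gene. The first set of sequences shows the 42 coding bases around the P-loop, the nucleotide-binding loop (Walker A motif) of the NACHT domain, which each of the 10 genes holds once and within a single exon. The capitals mark the 8 codons of the P-loop, and each sequence reads 5′ to 3′ on the gene's own strand.
Nlrp4a, chr7:26449420-26449461, plus: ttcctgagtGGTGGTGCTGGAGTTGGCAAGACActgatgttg
Nlrp4f, chr13:65195341-65195382, minus: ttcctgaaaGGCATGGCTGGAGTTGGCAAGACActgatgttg
Nlrp4c, chr7:6065552-6065593, plus: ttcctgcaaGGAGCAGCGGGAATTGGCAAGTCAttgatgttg
Nlrp4e, chr7:23320540-23320581, plus: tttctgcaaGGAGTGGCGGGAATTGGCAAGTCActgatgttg
Nlrp4b, chr7:10714307-10714348, plus: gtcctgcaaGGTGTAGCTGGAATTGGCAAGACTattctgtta
Nlrp14, chr7:107181847-107181888, plus: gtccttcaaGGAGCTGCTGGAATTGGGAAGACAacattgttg
Nlrp2, chr7:5328808-5328849, minus: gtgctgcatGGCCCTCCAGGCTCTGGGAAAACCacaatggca
Nlrp4c and Nlrp4e differ at 4 of the 42 bases, Nlrp4a and Nlrp4f at 6, and Nlrp4a and Nlrp4c at 10. Nlrp2 differs from Nlrp4a at 21.

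Over whole coding sequences, the 45 pairs of genes fell into 2 classes. The 11 pairs within the Nlrp4 group or between Nlrp9a and Nlrp9b had 77.8% to 93.9% identical aligned bases, and the other 34 pairs 58.1% to 63.5%. The most alike pair was Nlrp4c and Nlrp4e at 93.9%, and their longest identical run is shown because a read falling inside it fits both genes. It covers coding bases 121 to 240 of both, in 1 exon of Nlrp4c on the plus strand, and no part of it is in capitals because nothing in it differs.
Nlrp4c, chr7:6060715-6060834, plus: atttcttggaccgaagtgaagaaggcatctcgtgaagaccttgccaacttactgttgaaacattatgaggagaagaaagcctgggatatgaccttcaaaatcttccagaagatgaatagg
The identity between Nlrp4a and Nlrp4c was 86.3%, with a longest identical run of 72 bases, and that between Nlrp9a and Nlrp9b was 84.2%, with a run of 129 bases.

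Each gene's transcripts were also cut into every possible 50-base stretch and searched in the transcripts of all other annotated genes on both strands. Nlrp14 and Nlrp4b shared 0% of their stretches with any other gene, and Nlrp2 and Nlrp4a shared 2.39% and 2.63%. Nlrp4f shared 5.95%, Nlrp9a 6.07%, Nlrp5 6.55%, Nlrp9b 7.79% and Nlrp4c 10.7%. For Nlrp4c the largest part, 6.97%, was shared with Nlrp4e. Nlrp4e stood apart at 36.7%, with 30.8% shared with the unprocessed pseudogene Gm16443 and similar parts with Gm8486 (30.3%), Gm8685 (29.9%), Gm8728 (29.7%) and Gm4541 (26.2%). These pseudogenes were at 0 to 1.10 FPKM in every library. How the counting placed reads that fit several genes is not given in the sources used here, so the level of Nlrp4e is uncertain. The same limit applies to Nlrp4c, since Nlrp4e was the more abundant of this pair in every library.

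Values are FPKM, mapped fragments scaled to transcript length and library size, which are per length and can be set side by side between genes. Library totals implied by the values were 24910433 to 32337966 reads, and 1080 to 411690 reads lay behind each value of the 10 genes. Oocyte markers summed to 8130 to 9040 FPKM in WT and 8800 to 10100 FPKM in Esrp1-KO, with 9 of 10 at a mean of 1 FPKM or more. Of these 9, the zona pellucida genes Zp1, Zp2 and Zp3 were called higher, while Dazl (809 to 973 FPKM in WT, 258 to 426 FPKM in Esrp1-KO) and Mos (162 to 242 and 90.1 to 128 FPKM) were called lower, and 4 were not called. The two-cell embryo list (10 genes) summed to 30.1 to 47.8 FPKM in WT, highest in replicate 3, and 31.2 to 42.7 FPKM in Esrp1-KO, with Tcstv3 called higher and Tcstv1 not called. The 4 red blood cell genes in the files summed to at most 0.449 FPKM. Of 13 cumulus and granulosa cell markers, 11 were in the files and only Cyp19a1, the enzyme that forms estrogen, reached 1 FPKM (5.46 to 7.07 in WT, 1.35 to 2.31 in Esrp1-KO). The sums of these 11 were 5.71 to 7.35 FPKM in WT and 1.85 to 3.11 FPKM in Esrp1-KO, while Fshr, Cyp11a1 and Ptx3 were at or near 0. The leukocyte list (9 genes, all in the files) summed to 3.08 to 4.8 FPKM in WT and 3.73 to 11.9 FPKM in Esrp1-KO, highest in Esrp1-KO replicate 3 through Lyz2 (5.44 FPKM) and Cd68 (3.5 FPKM), while Ptprc was at 0 to 0.0838 FPKM.

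Esrp1 itself, which encodes an RNA-binding regulator of alternative splicing, was measured at 17.1, 17.2, 19.5 and 16.2 FPKM in WT replicates 1 to 4 and at 3.62, 3.43, 2.31 and 3.83 FPKM in Esrp1-KO replicates 1 to 4. Every Esrp1-KO library lay below every WT library, as the labels have it. On the log2(FPKM + 1) scale used for all differences here, Esrp1 fell by 2.12 (SE 0.145, limma adjusted p = 1.32e-05).

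In WT eggs the members differed widely in level. Nlrp14 led with 1825 ± 335 FPKM (SD, n = 4) and ranked 27th among all genes listed. Nlrp4f followed at 516 ± 105 FPKM (rank 91), then Nlrp4a at 281 ± 38.4 FPKM (rank 145), Nlrp4b at 223 ± 28.2 FPKM (rank 177) and Nlrp9a at 192 ± 37.2 FPKM (rank 203). Below these came Nlrp9b at 157 ± 22.3 FPKM, Nlrp4e at 103 ± 9.19 FPKM, Nlrp5 at 90.0 ± 9.62 FPKM, Nlrp2 at 39.0 ± 3.26 FPKM and Nlrp4c at 10.5 ± 0.316 FPKM (rank 2847). The order was the same in all 4 WT libraries. Between neighbours, the libraries overlapped for Nlrp4a and Nlrp4b, Nlrp4b and Nlrp9a, Nlrp9a and Nlrp9b, and Nlrp4e and Nlrp5, although in each library the first gene of each of these pairs was the higher one. Nlrp5, the best known of the family, was thus among its lower members at the RNA level.

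**Figure D1:**
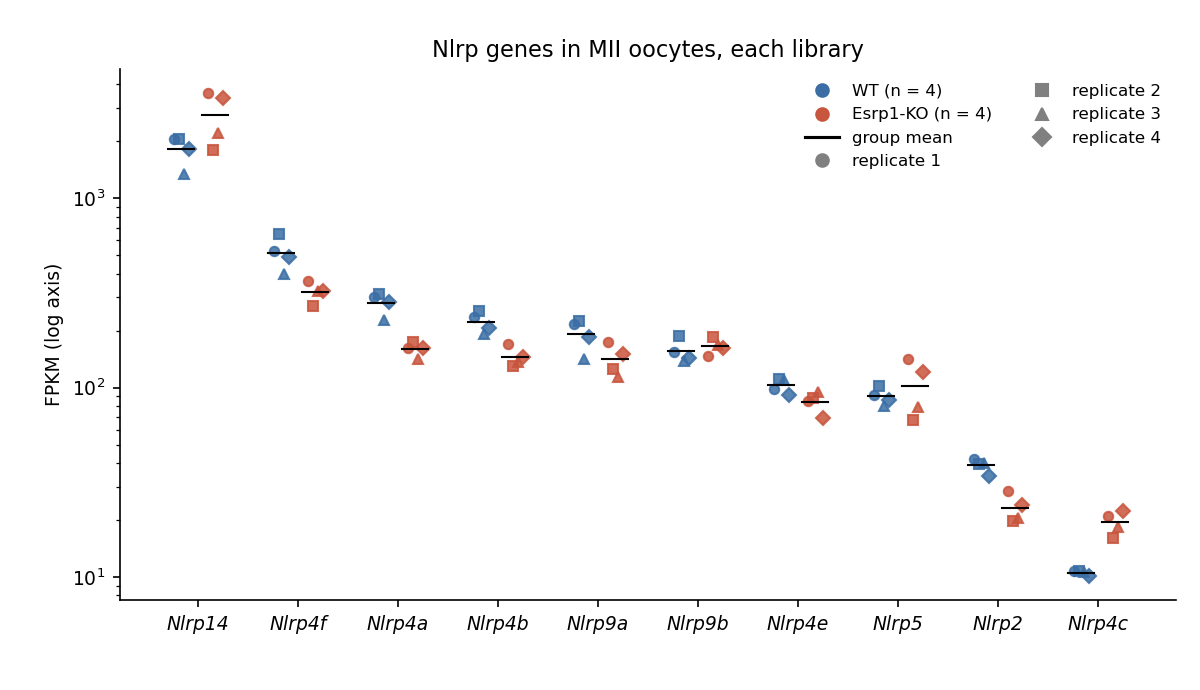
FPKM (log axis) of the 10 Nlrp genes in each WT and Esrp1-KO library, ordered by WT mean, with the shape of a point giving the replicate number and bars the group means. Nlrp14 sits highest in every library, and Nlrp4c, lowest in WT near 10.5 FPKM, is near 19.5 FPKM in Esrp1-KO.

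In Esrp1-KO eggs 4 of the 10 genes fell, 1 rose and 5 did not pass the test. Nlrp2, Nlrp4a, Nlrp4b and Nlrp4f fell to between 56.7% and 65.3% of their WT means, while Nlrp4c rose 1.85-fold. The same 5 genes were those whose WT and Esrp1-KO libraries did not overlap, and without Esrp1-KO replicate 3, the library highest in leukocyte transcripts, all 5 were called again. These counts are to be read against a broad difference between the groups, in which 36.9% of the 8021 genes tested were called (13.9% higher and 23.1% lower) and 36.8% did not overlap (13.5% higher and 23.3% lower). Among the 2221 genes at or above the mean level of Nlrp4c, 16.9% were called higher and 22% lower. The median log2 difference was -0.364 over the 10 genes and -0.06 over all genes tested. Being relative to the library total, the values cannot tell less RNA of a gene per egg from more RNA of other genes, nor fewer eggs holding it from less in each. The libraries were primed on poly(A), so a change in tail length cannot be told from a change in RNA amount either.

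The Nlrp4 group was the one in which closely related genes went opposite ways. Nlrp4a was at 303, 314, 227 and 282 FPKM in WT replicates 1 to 4 and at 161, 174, 141 and 161 FPKM in Esrp1-KO. All 4 Esrp1-KO libraries lay far under the lowest WT library, and the gene fell by 0.81 (SE 0.133, limma adjusted p = 0.00127). Its mean of 159 ± 13.8 FPKM in Esrp1-KO was 56.7% of WT, the lowest share among the 10 genes.

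Nlrp4b was at 237, 255, 193 and 206 FPKM in WT and 170, 130, 137 and 145 FPKM in Esrp1-KO. The groups did not overlap, with WT replicate 3 and Esrp1-KO replicate 1 closest to each other, and the gene fell by 0.61 (SE 0.134, limma adjusted p = 0.00598). Nlrp4f, whose protein has been placed in the subcortical maternal complex, was at 527, 650, 396 and 490 FPKM in WT and 366, 270, 326 and 323 FPKM in Esrp1-KO. Its groups also stayed apart, narrowly, between WT replicate 3 and Esrp1-KO replicate 1. Nlrp4f fell by 0.67 (SE 0.163, limma adjusted p = 0.00996), and the pair of replicate 2 held its widest difference.

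Nlrp4c was at 10.7, 10.8, 10.6 and 10.1 FPKM in WT and at 21.1, 16.0, 18.5 and 22.4 FPKM in Esrp1-KO. The WT libraries were nearly equal, and every Esrp1-KO library stood well above them. The rise was 0.82 on the log2 scale (SE 0.128, limma adjusted p = 0.00102), and it moved the gene from rank 2847 to rank 1791. Between 1080 and 2730 reads lay behind these values. How many of them fell in the 6.97% of stretches shared with the more abundant Nlrp4e was not tested, and this limit holds for every ratio to Nlrp4c.

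Nlrp4e, which is most like Nlrp4c in sequence, did not follow it. It was at 98.3, 111, 110 and 91.9 FPKM in WT and 85.3, 88.4, 94.7 and 68.9 FPKM in Esrp1-KO. The groups overlapped at Esrp1-KO replicate 3, although each Esrp1-KO library was below the WT library of its number, and the difference of -0.29 (SE 0.132) did not pass (limma adjusted p = 0.116). Knock-down of Nlrp4e in oocytes has been reported to impair early cleavage. The 36.7% of its stretches held in common with other genes, the pseudogenes above and Nlrp4c (8.24%) among them, applies to this value.

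**Figure D2:**
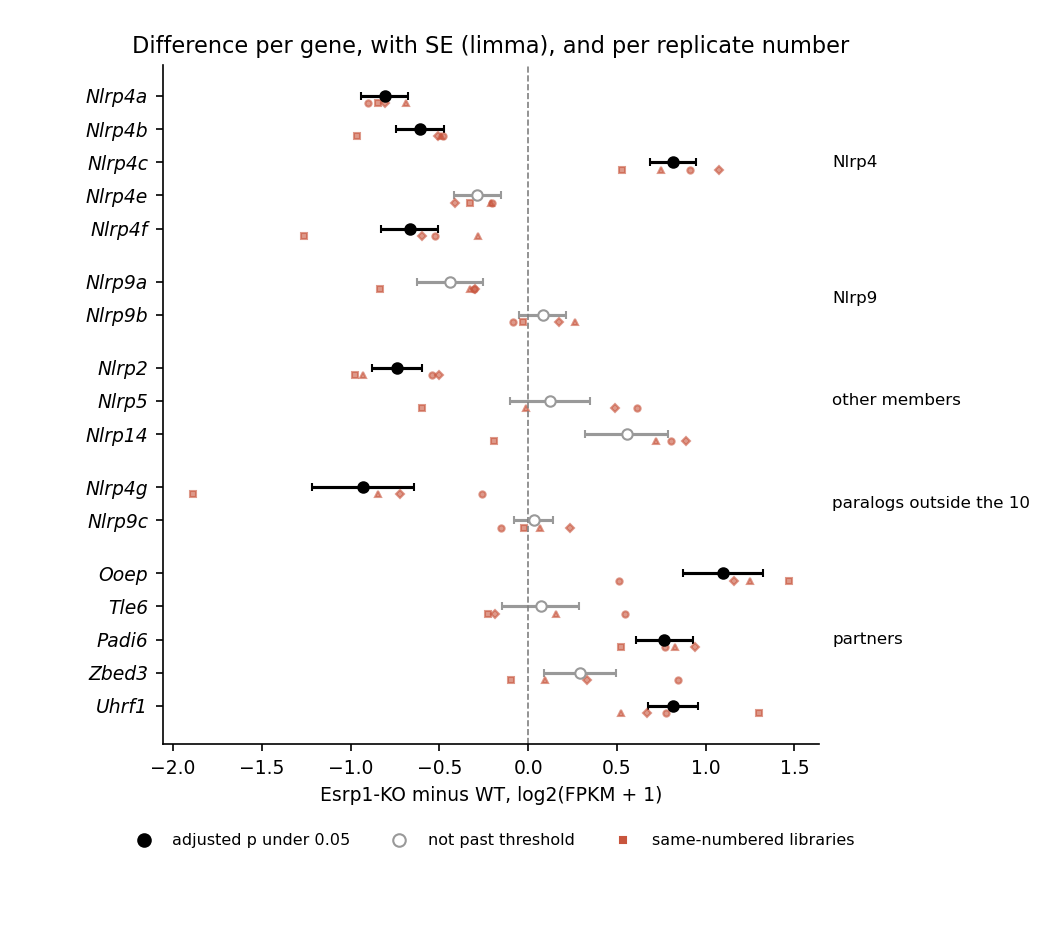
Difference between Esrp1-KO and WT on the log2(FPKM + 1) scale for the 10 Nlrp genes, the 2 related genes Nlrp4g and Nlrp9c, and 5 partner genes. Large points with bars are limma estimates with SE, filled where the adjusted p is under 0.05, and small points are the differences between same-numbered libraries (circle, square, triangle and diamond for replicates 1 to 4). Nlrp4c, at 0.82, is the only filled point right of 0 among the 10.

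Ratios inside a library do not depend on the scaling between libraries, and they restate the divergence of the Nlrp4 group on that footing. In WT, Nlrp4a was 26.5-fold above Nlrp4c, from a mean log2 ratio of 4.73 ± 0.204 (SD, n = 4), and in Esrp1-KO it was 8.24-fold above, from 3.04 ± 0.274. Nlrp4f was 48.2-fold above Nlrp4c in WT and 16.5-fold in Esrp1-KO, and Nlrp4b 21.0-fold and 7.50-fold. Nlrp4e was 9.72-fold above Nlrp4c in WT and 4.34-fold in Esrp1-KO. For each of these 4 pairs no WT library overlapped any Esrp1-KO library. With Nlrp4a, Nlrp4b and Nlrp4f this had to follow, since they fell and Nlrp4c rose without overlap. Those ratios are therefore no further support.

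None of the 7 pairs of close relatives without Nlrp4c separated the groups in this way. The log2 ratio of Nlrp4a over Nlrp4b was 0.33 ± 0.0917 in WT and 0.14 ± 0.213 in Esrp1-KO, and that of Nlrp4b over Nlrp4f -1.20 ± 0.134 and -1.14 ± 0.0816. For these 3 genes, all of which fell, the ratios to each other overlapped between the groups. Nlrp4c made up 0.804% to 1.13% of the summed FPKM of the 5 Nlrp4 genes in WT libraries and 2.35% to 3.11% in Esrp1-KO libraries.

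**Figure D3:**
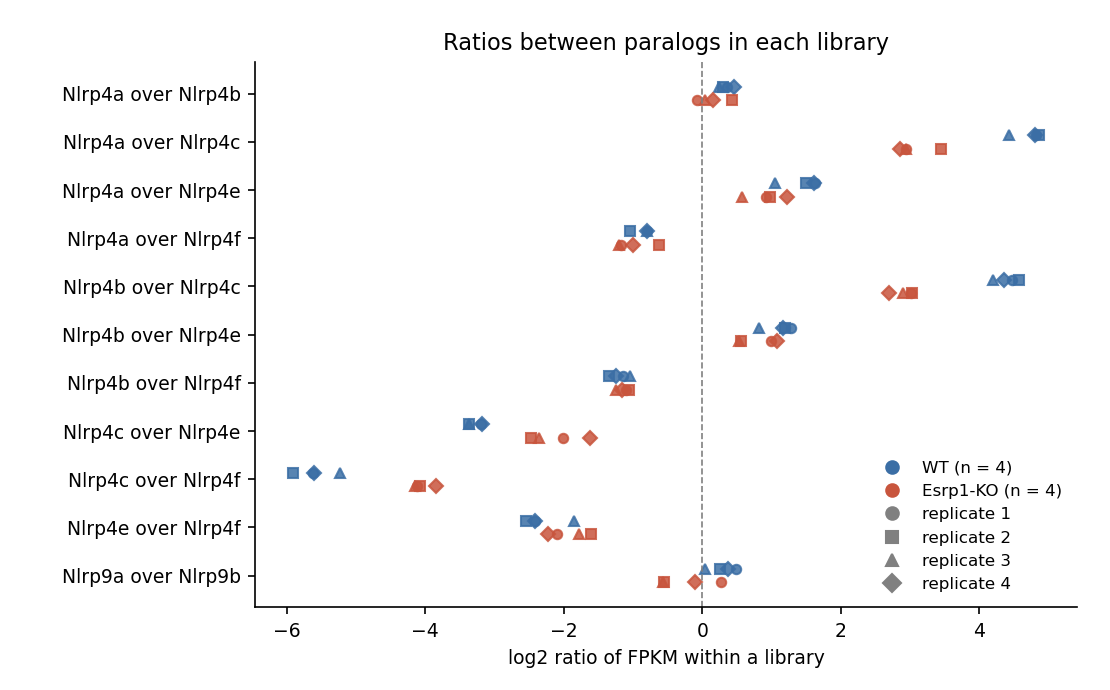
Log2 ratio of FPKM within each library for the 11 pairs of closely related genes, WT in blue and Esrp1-KO in red, with shapes for replicate numbers. The 4 pairs with Nlrp4c separate by group, and the 7 other pairs overlap.

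Close relatives differed in response over much the same range as distant ones only when the pairs with Nlrp4c were counted. Without Nlrp4c, close pairs differed by 0.0576 to 0.522, and distant pairs by up to 1.36 (Nlrp4a and Nlrp14). The difference between 2 genes in their log2 change was 0.0576 to 1.62 (median 0.522) over the 11 close pairs and 0.0417 to 1.55 (median 0.692) over the 34 distant pairs. The widest difference of all, 1.62, belonged to Nlrp4a and Nlrp4c, with 86.3% identity. Pairs share genes, so these medians are descriptions with no test.

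**Figure D4:**
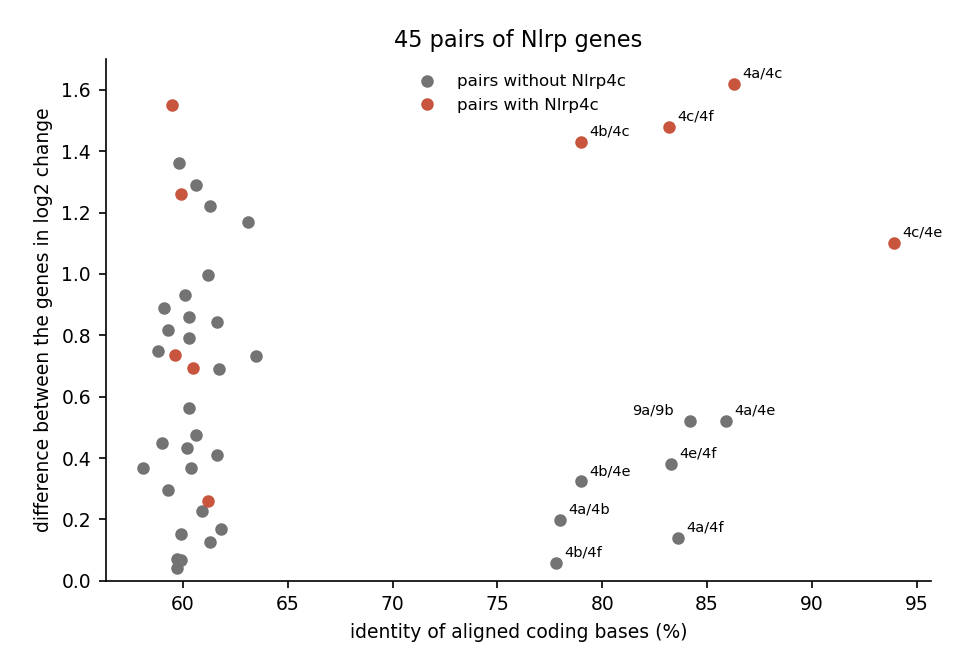
Each point is 1 of 45 pairs among the 10 Nlrp genes, with the identity of aligned coding bases (%) on the x axis and the absolute difference between the log2 changes of both genes on the y axis. Among the 11 labelled close pairs, those with Nlrp4c (red) lie at 1.10 to 1.62 and the others at 0.0576 to 0.522.

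The sequence just upstream was set beside these values because Nlrp4a and Nlrp4b fell together and Nlrp4c rose. The 120 bases before a RefSeq start (GRCm38.p6) are given for these 3 genes on their plus strand, with the 5-base motif CCAAT, on either strand, in capitals. CCAAT is the core of a common promoter element.
Nlrp4a, chr7:26435494-26435613: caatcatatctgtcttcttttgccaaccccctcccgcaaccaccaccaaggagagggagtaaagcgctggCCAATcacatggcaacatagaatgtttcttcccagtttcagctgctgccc
Nlrp4b, chr7:10687673-10687792: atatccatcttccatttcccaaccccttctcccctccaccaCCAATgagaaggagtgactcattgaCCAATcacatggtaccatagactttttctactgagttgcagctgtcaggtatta
Nlrp4c, chr7:6045041-6045160: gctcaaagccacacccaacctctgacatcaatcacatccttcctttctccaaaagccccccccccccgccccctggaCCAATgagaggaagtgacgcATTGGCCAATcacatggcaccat
The 250-base windows that end in the 3 stretches shown were alike, with 80.6% identity over 227 aligned bases for Nlrp4a and Nlrp4b, 79.0% over 210 for Nlrp4a and Nlrp4c, and 81.1% over 206 for Nlrp4b and Nlrp4c. The window at the other annotated start of Nlrp4a aligned over shorter stretches, 64 bases with Nlrp4b and 107 with Nlrp4c (76.6% each). CCAAT lay 50 bases before the start in Nlrp4a, at 79 and 54 bases in Nlrp4b, and at 43, 23 and 18 bases in Nlrp4c. Of the 12 annotated upstream windows of 250 bases for 9 of the genes, some of which overlap, 8 held CCAAT on either strand (66.7%), against 33.8% of 32851 RefSeq promoters. The alike windows of Nlrp4a, Nlrp4b and Nlrp4c are among the 8, so the windows are not independent, and the shares were not tested. The other 3 motifs searched on both strands were CANNTG, in 10 of the 12 windows and 66.2% of promoters, TATAAA, in 2 and 12.4%, and TAATTG, in 2 and 7.17%. The windows of Nlrp4f, which also fell, and of Nlrp9b held no CCAAT. Nor did the window of the other annotated start of Nlrp4a or that of the downstream start of Nlrp5. A match of letters is a description of these windows only, and the other start of Nlrp4a lies upstream of the one shown.

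Nlrp9a and Nlrp9b are the other pair of close relatives, and Nlrp9b is known from the intestine, where it takes part in restricting rotavirus. Nlrp9a was at 217, 224, 142 and 186 FPKM in WT and 175, 125, 113 and 151 FPKM in Esrp1-KO. WT replicate 3 lay within the Esrp1-KO range, so the groups overlapped, although each Esrp1-KO library was below the WT library of its number. The difference of -0.44 (SE 0.185) did not pass (limma adjusted p = 0.0883). It passed with the replicate number as a block (limma adjusted p = 0.0264).

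Nlrp9b was at 155, 188, 139 and 144 FPKM in WT and 146, 184, 167 and 162 FPKM in Esrp1-KO. The groups covered the same range, with a difference of 0.08 (SE 0.132, limma adjusted p = 0.668). Its rank among all genes was 243 in WT and 242 in Esrp1-KO. The related Nlrp9c, outside the 10, was at 297 ± 25.0 and 303 ± 22.4 FPKM (limma adjusted p = 0.854). The log2 ratio of Nlrp9a over Nlrp9b was 0.28 ± 0.192 in WT and -0.24 ± 0.399 in Esrp1-KO, with overlapping libraries.

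Nlrp2, whose loss in the mother has been linked to early embryo death and disturbed imprinting, was at 41.8, 39.7, 40.2 and 34.3 FPKM in WT and 28.4, 19.7, 20.6 and 24.0 FPKM in Esrp1-KO. All Esrp1-KO libraries were lower than all WT libraries. Nlrp2 fell by 0.74 (SE 0.141, limma adjusted p = 0.00295), to 59.4% of its WT mean.

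Nlrp14 and Nlrp5 had the widest spread among Esrp1-KO libraries. Nlrp14, reported to be needed in the egg for early development, was at 2059, 2065, 1350 and 1828 FPKM in WT and 3599, 1806, 2226 and 3381 FPKM in Esrp1-KO. Esrp1-KO replicates 1, 3 and 4 lay above every WT library, while replicate 2 lay among them. The difference of 0.56 (SE 0.235), a mean 1.51-fold higher, did not pass (limma adjusted p = 0.0916) and did with the replicate number as a block (limma adjusted p = 0.0441). The coefficient of variation of Nlrp14 was 18.4% in WT and 31.7% in Esrp1-KO.

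Nlrp5 was at 92.0, 102, 79.9 and 85.7 FPKM in WT and 141, 67.3, 79.1 and 121 FPKM in Esrp1-KO. Esrp1-KO replicates 1 and 4 stood above all WT libraries and replicates 2 and 3 below all of them, and the difference of 0.12 (SE 0.225) did not pass (limma adjusted p = 0.704). Its sign turned to -0.05 without Esrp1-KO replicate 1. Nlrp5-ps, the pseudogene with which Nlrp5 shares 6.31% of its stretches, had means of 0.163 FPKM in WT and 0.417 FPKM in Esrp1-KO, beside 90.0 and 102 FPKM for Nlrp5.

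Esrp1-KO replicates 1 and 4 were both above replicates 2 and 3 in 6 of the 10 genes, namely Nlrp2, Nlrp4b, Nlrp4c, Nlrp5, Nlrp9a and Nlrp14. They were both below in Nlrp4e and Nlrp9b, and neither held for Nlrp4a and Nlrp4f. The same count over all genes was not made. WT and Esrp1-KO libraries numbered 1 and 4, or 2 and 3, also deviated together over all genes tested, so the pattern is not particular to these genes.

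**Figure D5:**
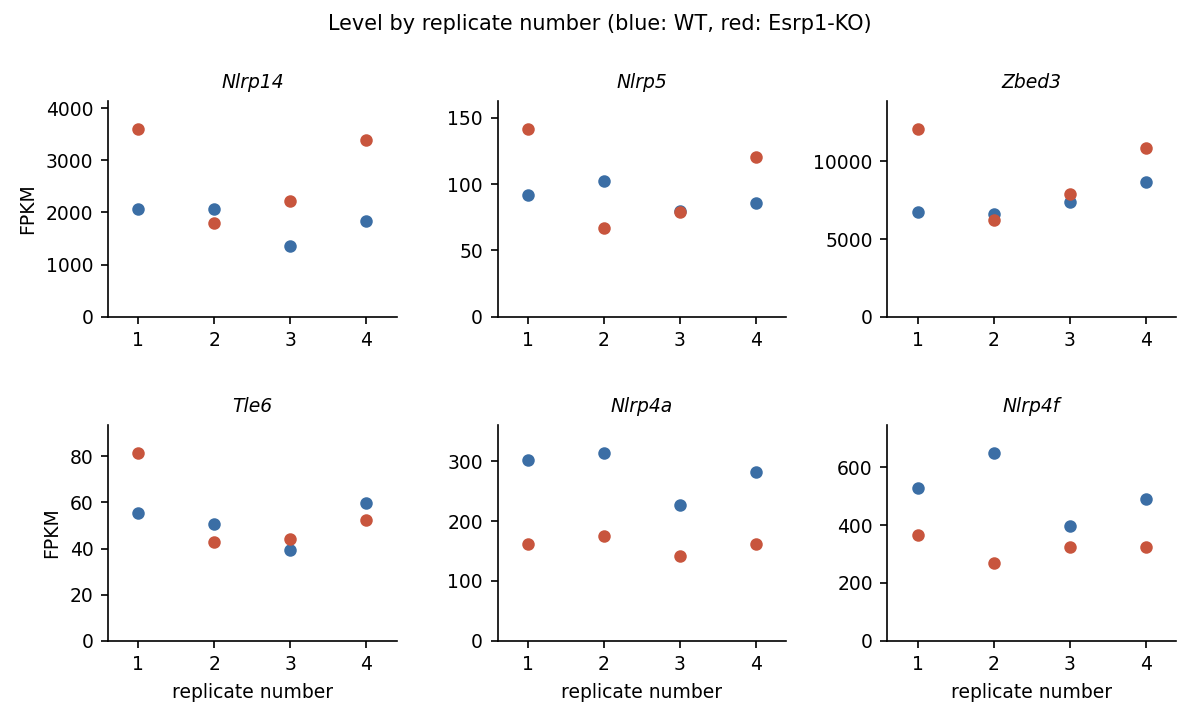
FPKM by replicate number for Nlrp14, Nlrp5, their partner genes Zbed3 and Tle6, and Nlrp4a and Nlrp4f, WT in blue and Esrp1-KO in red. For Nlrp14, Nlrp5, Zbed3 and Tle6, Esrp1-KO replicates 1 and 4 are both higher than replicates 2 and 3, which is not so for Nlrp4a and Nlrp4f. Among partner genes not drawn, both are lower for Ooep, and neither holds for Padi6 and Uhrf1.

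Nlrp14 alone made up most of the summed level of the 10 genes. The related Nlrp4g (mean 893 FPKM in WT and 466 FPKM in Esrp1-KO) and Nlrp9c (297 and 303 FPKM) are not in these sums. The sum over the 10 genes was 3436 ± 557 FPKM in WT and 3914 ± 965 FPKM in Esrp1-KO, or 1.06% and 1.21% of all FPKM, and the groups overlapped. The share of Nlrp14 in that sum was 50.2% to 55.0% in WT libraries and 62.7% to 74.2% in Esrp1-KO libraries. Without Nlrp14 the remaining 9 genes summed to 1338 to 1894 FPKM in WT and 1076 to 1294 FPKM in Esrp1-KO, with no overlap. The most abundant of these 9 in WT were Nlrp4f, Nlrp4a and Nlrp4b, each lower without overlap. The sum thus largely restates their fall and is no further support. In Esrp1-KO the order of the means became Nlrp14, Nlrp4f, Nlrp9b, Nlrp4a, Nlrp4b, Nlrp9a, Nlrp5, Nlrp4e, Nlrp2 and Nlrp4c. Nlrp9b thus passed Nlrp9a, Nlrp4b and Nlrp4a in mean, Nlrp5 passed Nlrp4e, and the levels of the neighbours from Nlrp9b to Nlrp4e overlapped each other from one to the next. The gap between Nlrp2 and Nlrp4c closed to overlapping ranges, with Nlrp2 still higher in 4 of 4 libraries.

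The proteins these eggs are known to assemble with the NLR proteins were taken as a list of 7 genes, of which 5 were tested and 3 rose and none fell (median log2 difference 0.766), beside 13.9% called higher and 23.1% called lower over all genes tested. Ooep, a small protein with a KH-like fold in the subcortical maternal complex, was at 239, 277, 271 and 224 FPKM in WT and 341, 770, 646 and 502 FPKM in Esrp1-KO, and rose by 1.10 (SE 0.227, limma adjusted p = 0.00442). Its Esrp1-KO libraries were lowest in replicate 1 and highest in replicate 2, the reverse of Nlrp5 and Nlrp14. Padi6, which is needed for the cytoplasmic lattices of the egg, was at 302 ± 34.9 FPKM in WT and 519 ± 94.1 FPKM in Esrp1-KO and rose by 0.77 (limma adjusted p = 0.00457). Uhrf1, a partner of DNA methylation upkeep that has been found with the complex, was at 50.04 ± 6.61 and 88.8 ± 11.3 FPKM and rose by 0.82 (limma adjusted p = 0.00155). Of the 50-base stretches of Uhrf1, 15.4% were shared with other genes.

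Tle6 and Zbed3, both bound to the complex, did not pass. Tle6 was at 51.3 ± 8.82 FPKM in WT and 55.2 ± 18.0 FPKM in Esrp1-KO (limma adjusted p = 0.825). Zbed3 was at 7343 ± 926 FPKM in WT, where it ranked 4th of all genes, and at 9254 ± 2692 FPKM in Esrp1-KO (limma adjusted p = 0.285). Khdc3 and Slc8b1, the remaining genes of the list, stayed at or under 0.427 FPKM in every library. For Khdc3, 38.5% of the exon bases overlap Gm20509 on the same strand, so its low value is uncertain.

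Among 21 other NLR genes, 19 were in the files and 4 reached a mean of 1 FPKM, with 1 higher, 2 lower and 1, Nlrp9c, not called, beside 13.9% higher and 23.1% lower over all genes tested. Nlrp4g, listed in M21 as a transcribed unprocessed pseudogene on chromosome 9, was the most abundant of the 4. It was at 732, 1305, 581 and 954 FPKM in WT and 612, 351, 323 and 577 FPKM in Esrp1-KO, lower in each same-numbered pair but with 1 WT library inside the Esrp1-KO range. Nlrp4g fell by 0.93 (SE 0.285, limma adjusted p = 0.0287), a call that ended under 2 other scalings of the libraries (0.0581 and 0.0677, limma adjusted p) and without WT replicate 2 (0.0704), WT replicate 4 (0.0694), Esrp1-KO replicate 2 (0.0705) or Esrp1-KO replicate 3 (0.0753). It shares 7.35% of its stretches with Nlrp4f.

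The other 2 called genes code for an inflammasome pair. Naip1, whose protein recognises bacterial secretion proteins, was at 3.32 ± 0.518 FPKM in WT and 8.49 ± 2.74 FPKM in Esrp1-KO and rose by 1.10 (limma adjusted p = 0.00287), with 31.5% of its stretches shared with other genes, Naip3 foremost. Nlrc4, with which NAIP proteins assemble, was at 21.3 ± 3.61 and 12.7 ± 3.42 FPKM and fell by 0.73 (limma adjusted p = 0.0149), with overlapping groups. The 15 remaining genes, Nlrp3, Nlrp6, Nod1 and Nod2 among them, did not exceed 0.853 FPKM in any library.

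Of 11 genes of the inflammasome pathway 10 were in the files and 3 were tested, with 2 lower and 1 not called, beside 23.1% lower over all genes tested. Casp8, a caspase of cell death pathways, was at 15.2 ± 1.91 FPKM in WT and 9.86 ± 1.49 FPKM in Esrp1-KO and fell by 0.58 (limma adjusted p = 0.01). Nek7, a kinase that binds NLRP3, was at 3.54 ± 0.228 and 2.17 ± 0.233 FPKM and fell by 0.52 (limma adjusted p = 0.00589). Txnip, a thioredoxin inhibitor, was at 378 ± 53.8 and 324 ± 35.4 FPKM (limma adjusted p = 0.239), and Gm15441 on the opposite strand covers 19.4% of its exon bases, which unstranded reads cannot tell apart. The adaptor Pycard, the caspase gene Casp1 and the pore gene Gsdmd were among the untested genes, all at or under 0.472 FPKM.

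The genes outside these lists whose log2(FPKM + 1) followed Nlrp4c most closely over the 8 libraries were Plppr5 (Pearson r 0.992), Ostm1 (0.991) and Aldh6a1 (0.989). All were low in WT, at 1.03, 0.505 and 2.44 FPKM, and at 3.17, 2.07 and 9.02 FPKM in Esrp1-KO. Those closest to Nlrp4a were Arhgap20 (0.992), Zgrf1 (0.990) and Ttll5 (0.989), at 1.41, 1.54 and 4.57 FPKM in WT and 0.659, 0.809 and 2.74 FPKM in Esrp1-KO. The 8 points fall into the 2 groups, so these coefficients mainly state the difference between groups and are given as descriptions.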

How the data were processed

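RNA of MII oocytes was measured in 4 WT and 4 Esrp1-KO libraries. For each Ensembl gene the deposited value is an FPKM, as the column name says. The authors' build was GRCm38, per the submitters' processing notes. Aligner, counting tool, annotation release and the handling of reads fitting several genes: not given in the sources used here. Smart-seq2 primes on poly(A) and keeps no strand, and the reads carry no molecular identifiers.

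The 8021 genes whose mean reached 1 FPKM entered a limma fit (version 3.58.1, R 4.3.3) of log2(FPKM + 1) on genotype alone, with an intensity trend, two-sided tests, Benjamini-Hochberg adjustment over all of them and a threshold of 0.05, a scale that understates the change of low genes. Exact two-sided permutation over all 70 arrangements of the libraries can give no p under 0.0286, which all 5 called Nlrp genes reached. FPKM times M21 exon length fell on whole multiples of a step, within 0.02 of a read, for about 90% of values above 0, which gave reads for 22629 genes. These served for depth and for a voom alternative.

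Same-numbered libraries, as numbered in the titles, deviated together in all 4 pairs (correlation of deviations from group means over genes 0.226 to 0.317, against -0.407 to 0.402 for other pairs). The highest value, 0.402, belonged to WT replicate 4 and Esrp1-KO replicate 1, so same numbers did not stand apart. Values were positive where both numbers were among 1 and 4, or both among 2 and 3 (0.017 to 0.402). They were negative in all other pairs (-0.407 to -0.126). Libraries of both groups thus deviated by these sets of numbers over all genes tested, and the cause was not tested. Whether same-numbered tubes were collected together is not given in the sources used here. The number was used as a block in an alternative only. The fit was tested on simulated data of 8021 genes, with independent normal noise at the spread of the WT libraries and few genes changed. It found 37.3% of 67 genes with a 1.5-fold change, 95.5% of 67 with a 2-fold change and 100% of 66 with a 4-fold change, and 3 of its 158 calls were false. In the real data 36.9% of genes were called, and some genes spread more in Esrp1-KO (Nlrp5, coefficient of variation 10.7% in WT and 34.1% in Esrp1-KO). These rates therefore need not hold for the real comparison.

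Sequences were read from GENCODE M21 transcripts and RefSeq promoters (GRCm38.p6) and aligned with Biopython 1.88. The promoter table held 9 of the 10 genes, with Nlrp14 not used here. The 10 genes, the lists of partners, other NLR genes and inflammasome genes, and the markers were chosen with earlier results of these data known. Genes named were Esrp1, the 10 genes, list genes whose mean reached 1 FPKM, genes sharing over 20% of a member's 50-base stretches, and the 3 genes most like the called gene with the smallest p in each direction. Untested list genes, marker genes, Nlrp5-ps, Naip3, Gm20509 and Gm15441 were named after their values were seen.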

Additional observations from a re-analysis of the deposited data

How the results depend on the processing

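The 5 called Nlrp genes kept their direction in all 21 alternatives (pseudocounts, filters, scalings, moderation, weights, voom, replicate block, leaving out each library, and pairs of replicate numbers alone) and their call in 19 of them. With replicates 1 and 4 alone, 3 of the 5 kept it (Nlrp2 -0.52, adjusted p = 0.0799, and Nlrp4b -0.49, 0.0643, did not, by limma), 3 of the 10 were higher and 2 lower, and Nlrp14 was at 0.85 (0.0102) and Nlrp5 at 0.55 (0.0431). With replicates 2 and 3 alone, 2 kept it (Nlrp4a -0.76, 0.0551, Nlrp4c 0.64, 0.0533, and Nlrp4f -0.77, 0.0858, did not), 0 of the 10 were higher and 2 lower, and Nlrp5 turned to -0.31 (0.298). These fits have fewer libraries. They also part the numbers where Esrp1-KO replicates 1 and 4 already lay above 2 and 3 for Nlrp5, Nlrp14 and Zbed3. That these genes passed with replicates 1 and 4 alone is therefore no further support. Leaving out 1 library gave 1 to 2 higher and 4 to 5 lower among the 10, with Nlrp5 at -0.054 (without Esrp1-KO replicate 1) to 0.30, Nlrp9a at -0.58 to -0.34 and Nlrp14 at 0.41 to 0.74. Nlrp9a was called without WT replicate 3 (limma adjusted p = 0.0341) or Esrp1-KO replicate 1 (0.0409) and with sample weights (-0.48, 0.0412), and Nlrp14 without Esrp1-KO replicate 2 (0.0246) and with median-ratio scaling (0.69, 0.0465), the cause not tested. With the replicate block, Nlrp9a (-0.44) and Nlrp14 (0.56) passed, for 2 higher of the 10, and no other call of the 10 changed.

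Over all genes, 1111 were called higher and 1850 lower. A minimum mean of 5 FPKM, which tests fewer genes, gave 668 and 996, replicates 1 and 4 alone gave 676 higher, replicates 2 and 3 alone gave 584 and 905, and leaving out 1 library gave 896 to 1112 and 1515 to 1816. Median-ratio scaling moved the median of all genes from -0.06 to 0.05 and gave 1551 higher and 1466 lower, and quantile normalization gave 1482 and 1546. The median of the 10 genes stayed between -0.444 and -0.227 in all alternatives.

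Among the list genes, calls ended with replicates 2 and 3 alone for Casp8 (limma adjusted p = 0.177), Nlrc4 (0.274), Padi6 (0.101) and Nek7 (0.107), and with replicates 1 and 4 alone for Nek7 (0.0664) and Nlrp4g (0.078), while Zbed3 passed with replicates 1 and 4 alone (0.0442).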
